A study of Mus musculus with 2 samples.

Results

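The genes of the SR proteins and the hnRNPs, the 2 large families of RNA-binding proteins that steer splice-site choice, were followed through long-read RNA sequencing of mouse gastrocnemius, the large muscle of the calf. Members were all genes with reads whose symbols were Srsf followed by a number, Hnrnp, Tra2a, Tra2b or Pcbp1 to Pcbp4, with pseudogene symbols left out. The rule found 36 genes among 14675 annotated genes with reads. They were 12 SR protein genes (the Srsf genes and the SR-like Tra2a and Tra2b), 20 hnRNP genes and 4 genes of poly(C)-binding proteins (PCBPs). Of these, 34 had reads in each library. Tra2a had 2 reads in replicate 1 and 0 in replicate 2, Hnrnpa0 had 0 and 2, and the annotated gene Srsf12 had 0 reads in both libraries.

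The muscle came from male B6CASTF1/J mice aged 2 months, first-generation hybrids of C57BL/6J and CAST/EiJ, so reads of CAST/EiJ alleles were also placed on the C57BL/6J-based genome build mm10. The mice carried no treatment and no engineered allele. They form 1 group of 2 libraries, called replicate 1 and replicate 2, each made from 2 µg of RNA. The labels number the males differently but give both the same donor identifier, so the spread between the libraries may be partly technical, and no p-value was computed.

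SR proteins carry an arginine- and serine-rich domain, bind enhancer sequences in exons and help the spliceosome to recognise those exons. hnRNPs coat nascent transcripts and often act as silencers of splice sites, and many also work in export, decay and translation of messenger RNA. Many genes of both families control their own output through a poison exon or through an intron that can be retained. A poison exon is a cassette exon whose inclusion marks the message for decay, mostly through a premature stop codon. The fate of messages with a retained intron was not tested here. Messages that carry a poison exon are usually destroyed by nonsense-mediated decay. Reads of such messages therefore show what escaped decay or had not yet been decayed, not how often the exon was spliced in.

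Because poison exons carry much of what follows, the coding path into 7 of them is shown first. Each line runs from the first base of the exon to the premature stop codon, 5′ to 3′ on the transcript strand, with the stop in capitals. The sequences are from the GENCODE M21 transcripts of GRCm38, the same assembly as mm10.
Srsf9: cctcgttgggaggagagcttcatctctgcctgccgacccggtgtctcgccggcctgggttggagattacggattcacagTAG
Hnrnpll: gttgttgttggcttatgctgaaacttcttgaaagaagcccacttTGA
Srsf4: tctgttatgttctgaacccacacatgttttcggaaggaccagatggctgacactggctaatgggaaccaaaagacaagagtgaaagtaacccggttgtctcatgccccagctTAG
Srsf6: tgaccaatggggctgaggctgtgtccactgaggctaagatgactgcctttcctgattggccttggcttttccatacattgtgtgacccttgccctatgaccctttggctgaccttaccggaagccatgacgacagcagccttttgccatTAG
Hnrnpl: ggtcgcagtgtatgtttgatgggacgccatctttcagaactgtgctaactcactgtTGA
Srsf3: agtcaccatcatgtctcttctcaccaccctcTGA
Srsf11: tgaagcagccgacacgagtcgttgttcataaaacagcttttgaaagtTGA
They were chosen because reads included each of these exons in at least 5% of cases on average, a threshold set after the values were seen. The stop codon also had to lie in the exon itself in at least 1 annotated decay transcript. The shown stretches lie at chr5:115328347-115328428 (Srsf9, plus strand), chr17:80044976-80045022 (Hnrnpll, minus), chr4:131884276-131884390 (Srsf4, plus), chr2:162932815-162932966 (Srsf6, plus), chr7:28817335-28817393 (Hnrnpl, plus), chr17:29039454-29039487 (Srsf3, plus) and chr3:158023310-158023359 (Srsf11, minus). In the decay transcripts the stop stood 700 nt (Srsf9), 807 nt (Hnrnpll), 617 nt (Srsf4), 534 nt (Srsf6), 842 nt (Hnrnpl), 548 nt (Srsf3) and 67 nt (Srsf11) before the last exon junction, the position that commonly marks a message for decay. For Srsf11 this is the transcript Srsf11-212. In its other decay transcript with this exon, Srsf11-206, the stop lies upstream of the exon, 456 nt before the last junction.

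Replicate 1 held 1107128 reads of annotated genes and replicate 2 held 1402875. Levels are given as counts per 1000000 of these reads (CPM), without division by length, since each long read stands for about 1 cDNA molecule. Where no read was counted, a floor of 3 counts applies, equal to 2.71 CPM in replicate 1 and 2.14 CPM in replicate 2. All 5 muscle markers were read, at a summed 155625 CPM in replicate 1 and 141427 CPM in replicate 2. Markers of other cells were far lower: 366 and 466 CPM for fibroblasts, 170 and 108 CPM for erythroid cells, 126 and 163 CPM for tendon, 125 and 197 CPM for smooth muscle and pericytes, 52.4 and 49.9 CPM for Schwann cells, 19.9 and 37.1 CPM for endothelium, 11.7 and 17.1 CPM for leukocytes, 11.7 and 2.85 CPM for adipocytes and 0 and 1.43 CPM for satellite cells. Cd68, Adipoq, Plin1 and Pax7 were at 0 in both libraries. In bulk tissue, fewer cells of a type and less RNA per cell cannot be told apart, and the part of other cells in the levels below was not tested.

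Together the 36 genes took 2004 reads in replicate 1 and 2908 in replicate 2, which is 0.181% (Wilson 95% interval 0.173 to 0.189) and 0.207% (0.200 to 0.215) of the reads of annotated genes. Their summed level was 1941 ± 186 CPM (mean ± SD, n = 2, as for all such values below). hnRNP genes held most of it, with 1305 ± 135 CPM, which was 66.8% of the member reads in replicate 1 and 67.6% in replicate 2. SR protein genes summed to 327 ± 35.2 CPM and the PCBP genes to 310 ± 15.4 CPM, so that 4 PCBP genes matched 12 SR protein genes to within the spread between the libraries. The median gene stood at 21.7 CPM among SR protein genes, 39.3 CPM among hnRNP genes and 86.7 CPM among PCBP genes.

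Among SR proteins, Srsf2, a factor for both splicing and transcription elongation, led with 63 reads (56.9 CPM) in replicate 1 and 107 reads (76.3 CPM) in replicate 2. Srsf5, a regulator also tied to messenger RNA export, had 66 reads (59.6 CPM) and 71 reads (50.6 CPM), and Srsf4, which has the longest arginine- and serine-rich domain of the family, had 48 reads (43.4 CPM) and 74 reads (52.7 CPM). The ranges of the 2 libraries overlapped between Srsf2 and Srsf5 and between Srsf5 and Srsf4, so the order of these neighbours was not fixed by the data. Srsf6, a factor involved in wound healing and skin, followed at 33.3 ± 2.34 CPM (35 and 49 reads). Srsf3, the smallest SR protein and an export adaptor, stood at 26.8 ± 8.50 CPM (23 and 46 reads), and Srsf11, a partner of U2AF, at 24.1 ± 2.18 CPM (25 and 36 reads).

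The remaining SR protein genes were read less. Srsf7, the member with a zinc knuckle, had 19.4 ± 1.84 CPM, Srsf10, which acts as a splicing repressor once dephosphorylated, had 16.6 ± 6.82 CPM, and Srsf9 had 16.1 ± 1.55 CPM. Srsf1, the founding member of the family, stood at 15.2 ± 3.66 CPM with 14 and 25 reads. The ranges of neighbours overlapped from Srsf3 to Srsf1, except between Srsf11 and Srsf7. Tra2b, an SR-like activator, had only 6 reads (5.42 CPM) and 5 reads (3.56 CPM), and Tra2a stayed under the 3-count floor in both libraries.

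Hnrnpa2b1 (chr6:51460932-51469894, minus strand), whose products A2 and B1 bind and sort RNA and whose human counterpart is mutated in a rare muscle and brain proteinopathy, was the most read member. It had 404 reads (365 CPM) in replicate 1 and 567 reads (404 CPM) in replicate 2, or 20.2% and 19.5% of all member reads, and ranked 263 among all genes. Hnrnpk (chr13:58391142-58403343, minus), a protein with KH domains that binds C-rich sequence, followed with 160 and 222 reads (145 and 158 CPM). Hnrnpu (chr1:178321108-178337797, minus), a scaffold attachment factor of nuclear RNA, had 126 and 230 reads (114 and 164 CPM). Hnrnpa2b1 was more than 2 times as high as the next member in each library, whereas Hnrnpk and Hnrnpu changed places between the libraries. The lead rests on reads that match no annotated transcript in full. Per 1000000 annotated-transcript reads alone, Hnrnpa2b1 stood at 183 ± 33.3 CPM, beside 197 ± 6.36 CPM for Pcbp1, 192 ± 49.2 CPM for Hnrnpu and 1.36 ± 1.93 CPM for Hnrnpk.

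Pcbp4 and Pcbp1 came next, at 135 ± 1.24 CPM (148 and 190 reads) and 131 ± 1.92 CPM (143 and 185 reads), only 5 reads apart in each library. PCBPs bind poly(C) tracts through KH domains, and Pcbp1, an intronless gene that arose by retrotransposition, also encodes an iron chaperone. Pcbp2, its close relative with introns, had 42.9 ± 10.9 CPM (39 and 71 reads), but 20.2 ± 8.90 CPM once genomic reads were left out and 4.91 ± 0.780 CPM in annotated-transcript reads alone. Pcbp3 had 1 and 4 reads. Hnrnpf, which binds G tracts, had 114 ± 13.6 CPM, and its X-linked relative Hnrnph2 had 62.3 ± 17.8 CPM, against 14.8 ± 0.777 CPM for Hnrnph1 and 21.1 ± 0.431 CPM for Hnrnph3 (4.36 and 11.9 CPM in annotated-transcript reads alone). Hnrnph2, with 49.7 and 74.8 CPM, was thus above Hnrnph1 and Hnrnph3 in each library and below Hnrnpf, with 105 and 124 CPM.

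Of the other hnRNP genes, Hnrnpd, which encodes the AU-rich element binding protein AUF1, stood at 57.8 ± 3.88 CPM and Hnrnpa1, a splicing silencer and shuttling protein, at 46.6 ± 4.63 CPM. Hnrnpul1, a relative of Hnrnpu, had 42.3 ± 3.65 CPM, and Hnrnpab, a relative of Hnrnpd, 40.8 ± 6.23 CPM. Hnrnpl, a binder of CA repeats, had 39.7 ± 1.27 CPM, and Hnrnpc, which binds uridine tracts, 38.9 ± 2.53 CPM. Hnrnpdl, whose human counterpart is mutated in a limb-girdle muscular dystrophy, had 36.8 ± 7.38 CPM. The 5 genes from Hnrnpul1 to Hnrnpdl had overlapping ranges and no fixed order. The remaining hnRNP genes with reads in both libraries ranged up to 29.6 ± 8.60 CPM for Hnrnpa3.

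**Figure D1:**
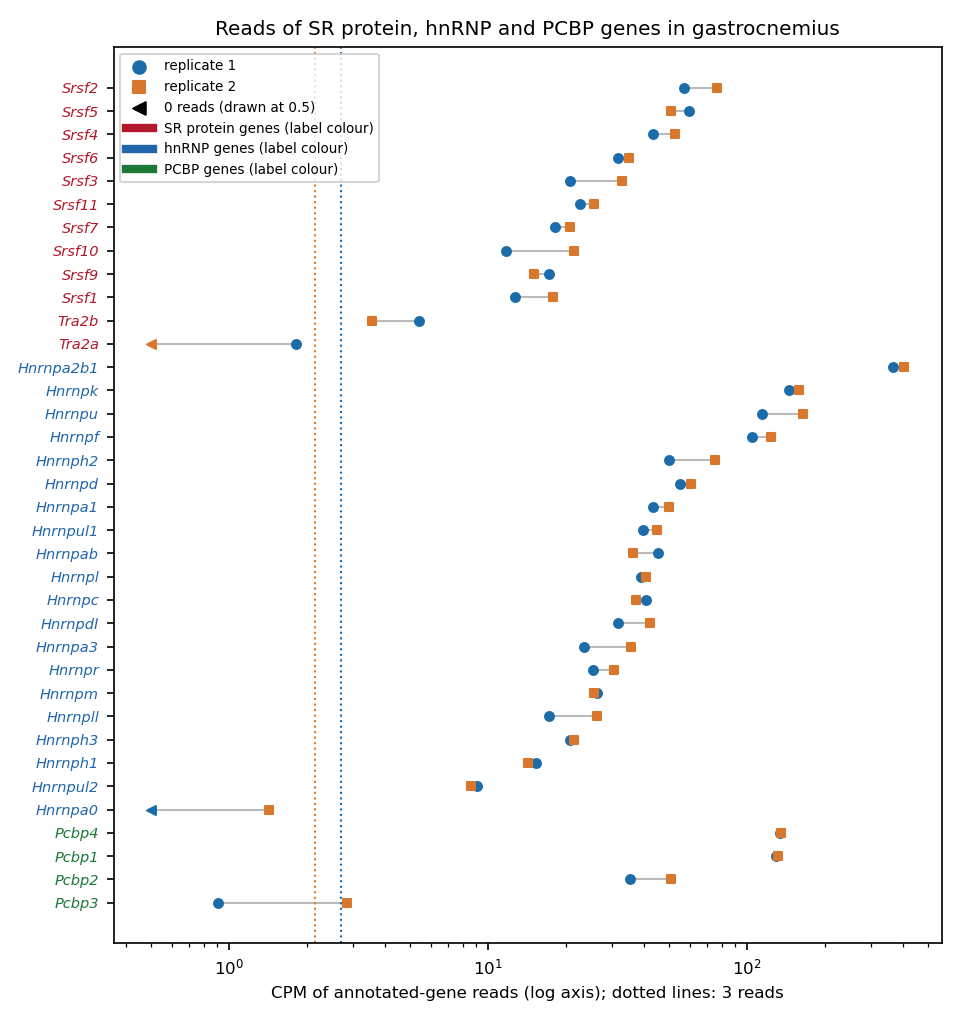
Level of each of the 36 genes in replicate 1 (circles) and replicate 2 (squares), as CPM of annotated-gene reads on a log axis, ordered within each family by mean level; dotted lines mark 3 reads in each library. Hnrnpa2b1 stands apart at 365 and 404 CPM, and Tra2a and Hnrnpa0, each with 0 reads in 1 library, lie under the floor.

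Between the libraries, the members with enough reads differed about as much as all genes. Of the 26 members that had at least 50 reads in sum, 0 differed by over 2-fold, against 4.42% of all 4294 genes with that many reads (0.536% higher in replicate 1 and 3.89% higher in replicate 2). With no minimum but 1 read in each library, 1 of 34 did, Pcbp3 with its 1 and 4 reads, against 15.6% of 11565 genes. The log2 ratio of replicate 1 over replicate 2 (CPM with 0.5 added to each count) had a median of −0.17 over the members and −0.11 over all genes. It ran from −0.64 for Srsf3 to 0.31 for Hnrnpab, with 4 members higher in replicate 1 and 22 higher in replicate 2, against 1676 and 2618 of all genes. The median size of the log2 ratio was 0.22 for the members and 0.28 for all genes. It was also 0.28 for the 3891 genes in the members' range of 53 to 971 summed reads. With only 26 members, a count of 0 over 2-fold cannot be told from the 4.42% of all genes. Other scalings shifted the median of all genes by about 0.1 (to −0.02 with TMM and to −0.00 with median-ratio factors), so the signs of members near 0 depend on the scaling.

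**Figure D2:**
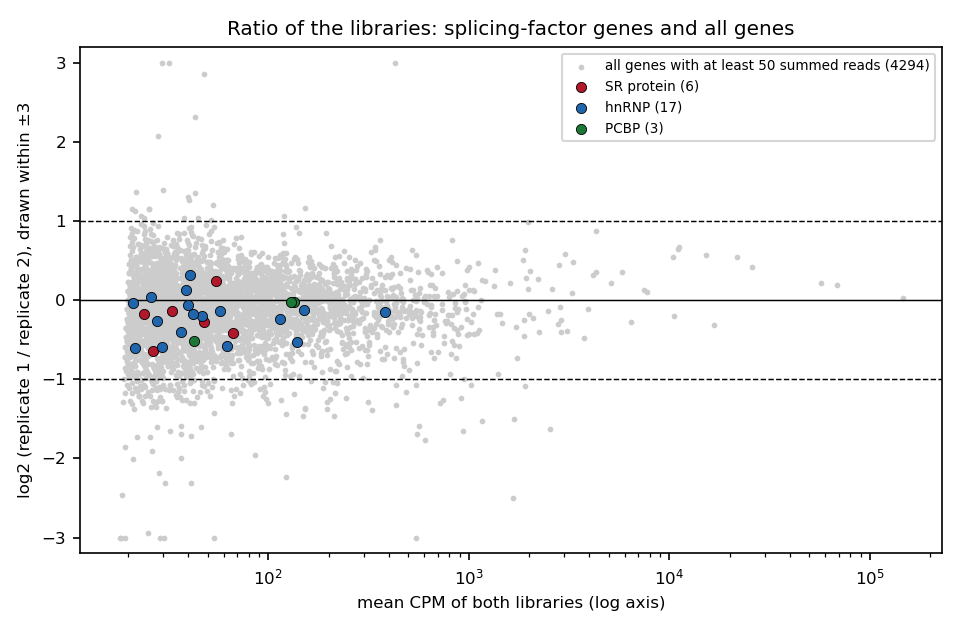
Log2 ratio of replicate 1 over replicate 2 against mean CPM (log axis) for all 4294 genes with at least 50 summed reads (grey) and for the 26 SR protein, hnRNP and PCBP genes among them (coloured); dashed lines mark 2-fold. All 26 lie inside the dashed lines, between −0.64 and 0.31.

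Sorted by how each read matched the annotation, the members' reads were divided otherwise than those of all genes. Annotated transcripts took 60.6% of the member reads in replicate 1 and 60.0% in replicate 2, against 66.2% and 65.5% over all genes. This difference turned round without Hnrnpa2b1, where annotated transcripts took 66.5% and 68.3% of the reads of the other members. Incomplete splice matches, reads that hold part of an annotated intron chain, took 17.3% and 20.5% of the member reads, against 10.3% and 9.95% over all genes. Chains given by the authors' annotation step as new combinations of annotated splice sites took 12.2% and 9.63%, against 3.97% and 4.19%. By the coordinates of the models, all splice sites were annotated in only 102 of the 245 and 130 of the 280 member reads in this class (41.6% and 46.4%), against 79.6% and 78.5% over all coding genes. Without Hnrnpk it was 97 of 116 and 122 of 151. Chains with an unannotated splice site took 3.99% and 5.23%, against 17.2% and 17.4%, and genomic reads, which overlap a gene without matching its junctions, took 5.84% and 4.64%, against 2.32% and 3.01%.

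A pair of genes held much of this. Hnrnpa2b1 held the incomplete matches: its most read model was a 2-exon 3′ end of 578 nt with 126 reads in replicate 1 and 228 in replicate 2, ahead of the full-length Hnrnpa2b1-204 with 96 and 98 reads. A 3-exon 3′ end took 19 and 52 further reads, and a single-exon genomic model of 425 nt took 51 and 48. Without Hnrnpa2b1 the incomplete share of the other members was 10.1% and 10.3%, close to that of all genes. Hnrnpk held 129 of the 245 and 129 of the 280 reads in new combinations, and without it their share was 6.29% and 5.62%, still above that of all genes. How many of the short Hnrnpa2b1 reads came from truncated molecules was not tested. Counting its annotated full-length transcripts alone left 151 and 146 reads.

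The reads of a member were usually spread over several models. Taking the 25 members read at least 20 times per library, the most read model of a gene held a median of 50% of its reads in replicate 1 and 44.2% in replicate 2, against 81.8% and 82.2% over 4111 genes. The leading model was the same in both libraries for 19 of the 25 (76%), against 94.3% of all genes. At one end stood Pcbp1, whose single-exon transcript Pcbp1-201 took all 141 and 185 reads other than genomic ones, and Hnrnpu, where Hnrnpu-201 took 115 of 123 and 208 of 227. Pcbp4-201 took 114 of 148 and 153 of 190 reads, and the leading SR protein transcripts Srsf2-201, Srsf4-202, Srsf6-203 and Srsf3-202 each took 78.3% to 82.8% of their gene's reads in both libraries.

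At the other end of the 25, Hnrnpc had the lowest mean share (18.1%). It was led by Hnrnpc-206 with 5 of 45 reads in replicate 1 and by Hnrnpc-211 with 13 of 52 in replicate 2. The leading model of Hnrnph3 also differed between the libraries, with 7 of 23 and 7 of 30 reads (mean 26.9%). Srsf5-201 led Srsf5 with 17 of 64 and 22 of 71 reads among 20 models in each library (mean 28.8%). Pcbp2 and Srsf9 fell below the minimum, with 15 and 18 reads in replicate 1 once genomic reads were left out, and are given as counts only. Pcbp2 was divided among 13 and 29 models with no more than 3 reads each. Srsf9 changed its leading model. In replicate 1 it was the coding transcript Srsf9-201, with 9 of 18 reads. In replicate 2 it was Srsf9-205, annotated as a target of nonsense-mediated decay, with 8 of 21 reads, against 7 for Srsf9-201.

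Transcripts annotated as decay targets took a larger share of reads than over all coding genes. They took 34 of the 1215 annotated-transcript reads of the members in replicate 1 (2.80%, Wilson 95% interval 2.01 to 3.88) and 41 of 1745 in replicate 2 (2.35%, 1.74 to 3.17). Over all coding genes the shares were 0.171% and 0.183%. These shares pool reads, so the most read genes weigh most in them. They also count genes that have no annotated decay transcript, and no share matched for this was computed. The reads came from 11 genes. Hnrnpa1 gave 8 of 37 and 4 of 58, Hnrnpa2b1 6 of 151 and 9 of 146, Hnrnpdl 4 of 25 and 10 of 39, Srsf9 3 of 12 and 8 of 15, Srsf6 5 of 33 and 4 of 44, and Srsf3 3 of 21 and 3 of 39. The median member had none, so the raised share belongs to a minority of the family. Annotated retained-intron transcripts took 1.07% and 0.917% of the members' annotated reads, near the 0.789% and 0.942% of all coding genes.

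Poison exons were then scored one by one from the exon coordinates of every model, annotated or not. A poison exon was taken as an internal exon of at least 1 annotated decay transcript that no annotated coding transcript holds, whether or not the stop codon lies in it. The rule gave 29 such exons, of which 16 in 10 genes had at least 10 spanning reads in each library. Of the 16, 11 were included in at least 5% of reads on average, where the share was 21.5% of 689 such exons over all coding genes. Of the 13 that overlap no exon of a coding transcript, 8 passed, against 17.9% of 613. The stop lay in the exon in 7 of the 11, for Srsf11 in 1 of 2 decay transcripts that hold it. It lay upstream of the exon in the decay transcripts for the other 4, which are the 90-nt exon of Srsf9, the 184-nt and 174-nt exons of Srsf4 and the 105-nt exon of Hnrnpdl, and likewise for 3 of the 5 that did not pass. Pooled over the 16 exons, 41 of 502 read decisions were inclusions in replicate 1 (8.17%, 6.08 to 10.9) and 99 of 742 in replicate 2 (13.3%, 11.1 to 16.0). Exons of 1 gene share reads, so these decisions are not independent.

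Srsf9, an SR protein with a short arginine- and serine-rich domain, included its 358-nt exon most often. The exon, whose coding path is printed above, was in 7 of 17 deciding reads in replicate 1 (41.2%, 21.6 to 64.0) and in 12 of 19 in replicate 2 (63.2%, 41.0 to 80.9). A second Srsf9 exon of 90 nt at chr5:115331450-115331539, which overlaps a coding exon, was in 4 of 18 and 11 of 21 reads. The intervals of the libraries overlapped for both exons. Of all Srsf9 reads that span the 358-nt exon, including those with other boundaries there, 7 of 18 (38.9%) and 12 of 21 (57.1%) carried it.

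Srsf4 holds its poison exons as a block in its long first intron. The 207-nt, 184-nt and 174-nt exons were included in 4 of 43, 4 of 43 and 5 of 44 reads in replicate 1 and in 14 of 72, 12 of 70 and 13 of 72 reads in replicate 2. Single molecules show that they travel together: all 3 were on the same read in 4 of 44 reads in replicate 1 and 11 of 72 in replicate 2, whereas 39 and 58 reads had none, 1 read in replicate 1 had 1 and 3 reads in replicate 2 had 2. The chain that carries all 3 between otherwise annotated exons, with 4 and 10 reads, is absent from the annotation, whose decay transcripts Srsf4-203 and Srsf4-204 hold them in other arrangements. An alternative start of the last exon of the block, which makes it 198 nt long, was in 0 of 39 and 0 of 59 reads.

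**Figure D3:**
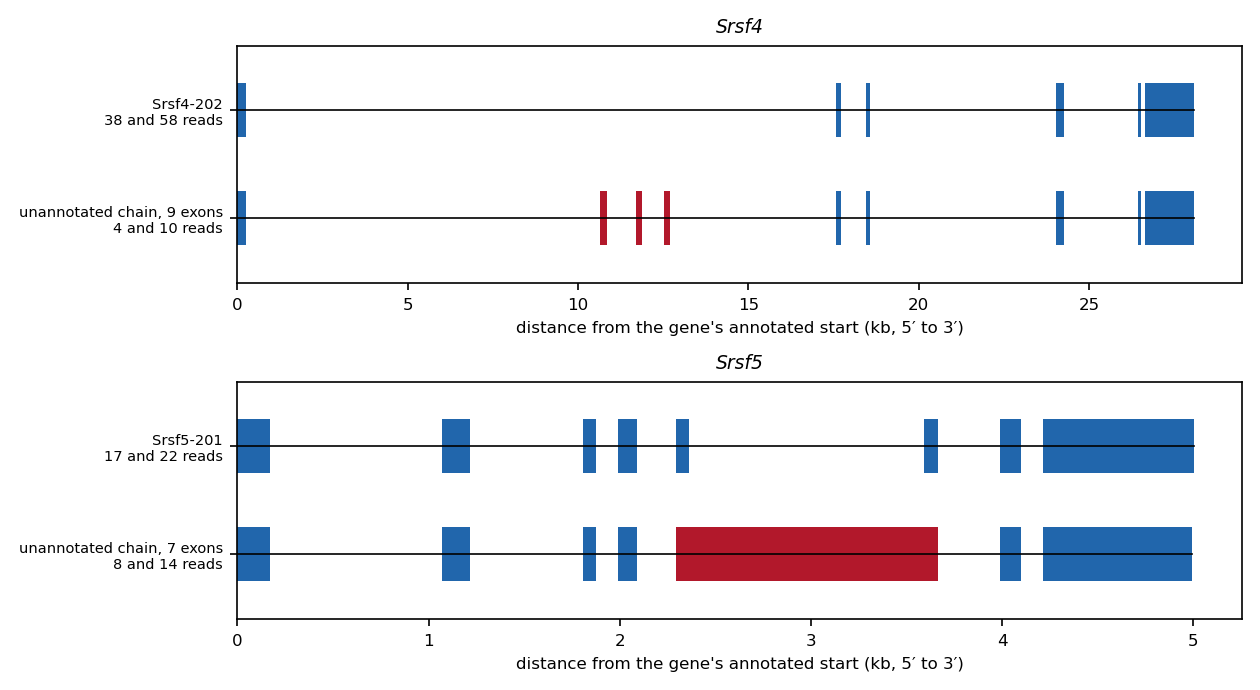
Exons (boxes) of the most read annotated model and the most read unannotated chain of Srsf4 and Srsf5, drawn to scale by distance from the gene's annotated start, with their reads in replicate 1 and replicate 2; red marks the 3 poison exons of Srsf4 and the retained 1229-nt intron of Srsf5 with its flanking exons. In Srsf4 the 3 exons sit together between the first and the second exon of the coding transcript.

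In 5 further genes the poison exon was a minority form in both libraries. The 105-nt exon of Hnrnpdl, at chr5:100035635-100035739, lies in the 3′ part of the gene, overlaps an exon of a coding transcript and was in 4 of 25 and 12 of 37 reads (24.2 ± 11.6%). Hnrnpll, a relative of Hnrnpl known for regulating CD45 splicing in T cells, included its 83-nt exon in 2 of 18 and 7 of 36 reads (15.3 ± 5.89%). Srsf6 included its 268-nt exon, which also overlaps an exon of a coding transcript, in 5 of 33 and 4 of 45 reads (12.0 ± 4.43%). Hnrnpl included its 70-nt exon in 2 of 36 and 7 of 41 (11.3 ± 8.14%). The 456-nt exon of Srsf3, through which Srsf3 is known to limit its own level, was in 3 of 21 and 3 of 40 reads (10.9 ± 4.80%). The intervals of the libraries overlapped for each of the 5.

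With their exact boundaries, the other poison exons were rare or not seen. Srsf11 included its 117-nt exon in 1 of 21 and 2 of 28 reads and its 109-nt exon in 0 of 21 and 1 of 28. Srsf7 included its 460-nt exon in 0 of 15 and 1 of 22 reads. Further reads covered these stretches with other boundaries or by keeping the whole intron: where covering 50% of the exon counted, mean inclusion was 20.8% for the Srsf7 exon and 17.1% and 9.35% for the Srsf11 exons, against 2.27%, 5.95% and 1.79% with exact boundaries. For Srsf7 the 3 and 7 reads counted in this way include the 3 and 6 that retained the 874-nt intron around the exon. In Srsf11, 1 read in each library retained the 3774-nt intron around both exons. The 107-nt and 71-nt exons of Hnrnpd, which share a 5′ boundary, were in 0 of 54 and 0 of 76 reads, which allows inclusion of up to 6.64% and 4.81% by the Wilson interval. Tra2a, Tra2b, Srsf1, Srsf5, Hnrnpu and Pcbp4 had too few deciding reads for their poison exons, and Hnrnpa1 had a 76-nt exon in 12 of 12 and 6 of 6 reads, below the minimum in replicate 2. Most of the 48 and 70 reads of Hnrnpa1 did not run past this exon and were not scored for it, so these counts are not its share in the gene.

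**Figure D4:**
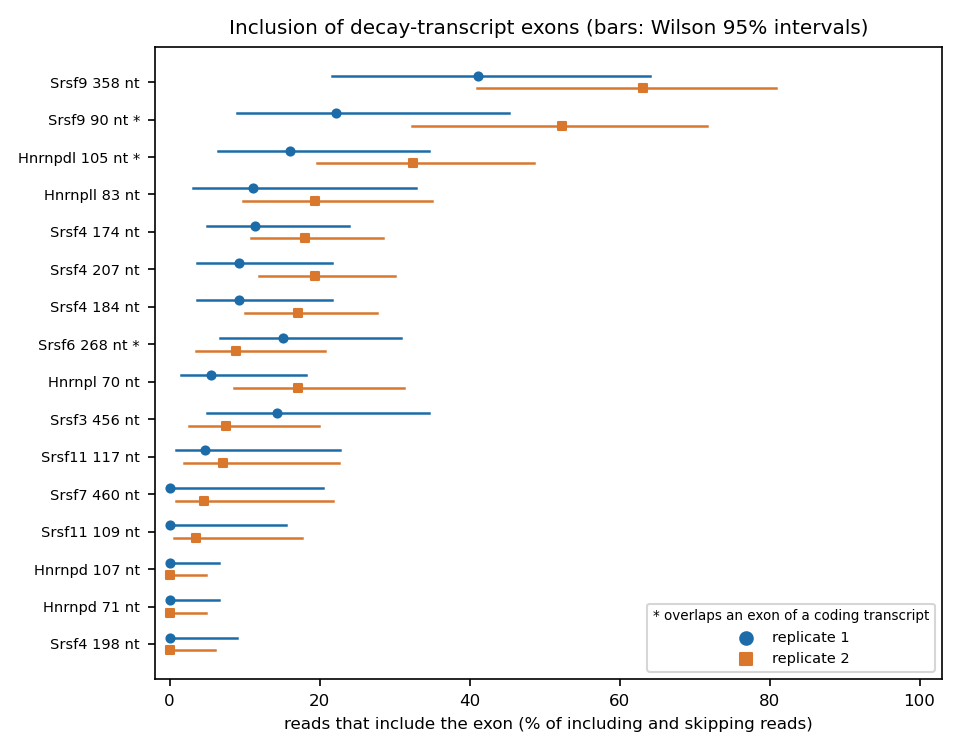
Inclusion of the 16 poison exons with enough reads, as percent of the reads that include or skip the exon, in replicate 1 (circles) and replicate 2 (squares) with Wilson 95% intervals; a star marks exons that overlap an exon of a coding transcript. Srsf9 lies highest, at 41.2% and 63.2% for its 358-nt exon, and 3 exons lie at 0 in both libraries.

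Alternative exons also made up a larger share of exons than over all coding genes. Of 247 internal member exons with at least 10 spanning reads in each library, 25 in 16 genes had a mean inclusion between 10% and 90%, against 2.55% of 47275 exons over all coding genes. Many of the 25 are poison exons already described, in Srsf3, Srsf4, Srsf6, Srsf9, Hnrnpl, Hnrnpll and Hnrnpdl, so this count in part repeats that result. A 166-nt and a 169-nt exon of Hnrnpr among them differ only in their start. The exons with the most spanning reads that lie in coding sequence include exons of Hnrnpa2b1, Hnrnpd and Hnrnpab, and 3 of them stand out in their letters.
Hnrnpa2b1, 120 nt: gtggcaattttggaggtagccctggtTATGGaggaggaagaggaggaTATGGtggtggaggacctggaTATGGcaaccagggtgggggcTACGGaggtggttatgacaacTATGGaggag
Hnrnpd, 147 nt: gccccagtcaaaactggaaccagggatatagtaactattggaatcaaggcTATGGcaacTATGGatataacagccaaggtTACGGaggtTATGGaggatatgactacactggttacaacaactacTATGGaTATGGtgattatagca
Hnrnpab, 141 nt: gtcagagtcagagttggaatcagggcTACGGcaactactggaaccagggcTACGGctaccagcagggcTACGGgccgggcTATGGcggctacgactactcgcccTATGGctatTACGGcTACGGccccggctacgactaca
Capitals mark the letters TATGG and TACGG on the transcript strand, where copies cannot overlap. The exons held 5, 6 and 7 copies. They lie at chr6:51464428-51464547 (minus), chr5:99963731-99963877 (minus) and chr11:51601750-51601890 (minus), all inside the coding sequence, in the C-terminal glycine-rich region of these proteins. The motif was picked after the sequences were seen. Of 42235 internal coding exons of 120 to 160 nt in the annotation, 14.4% had at least 1 copy, 0.0971% at least 3 and 0.0189% at least 5.

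The 120-nt exon of Hnrnpa2b1 was in 158 of 193 reads in replicate 1 (81.9%, 75.8 to 86.7) and in 172 of 199 in replicate 2 (86.4%, 81.0 to 90.5). The 147-nt exon of Hnrnpd was in 36 of 55 reads (65.5%, 52.3 to 76.6) and 47 of 76 (61.8%, 50.6 to 71.9). The 141-nt exon of Hnrnpab was in 15 of 49 (30.6%, 19.5 to 44.5) and 16 of 49 (32.7%, 21.2 to 46.6). The exon was thus the major form in Hnrnpa2b1 and Hnrnpd and the minor form in Hnrnpab. The order of the 3 genes was the same in both libraries. The interval of Hnrnpab lay below the other two in both, and those of Hnrnpa2b1 and Hnrnpd overlapped in replicate 1 and not in replicate 2.

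The 36-nt exon near the 5′ end of Hnrnpa2b1 separates its named products, since B1 holds it and A2 does not. Its sequence, at chr6:51467391-51467426 on the minus strand, is shown without capitals, as it holds neither of the letters above.
Hnrnpa2b1, 36 nt: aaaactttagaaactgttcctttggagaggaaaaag
It was in 22 of 177 reads in replicate 1 (12.4%, 8.35 to 18.1) and 24 of 173 in replicate 2 (13.9%, 9.50 to 19.8), so that A2 was the main form in both libraries. Reads that covered both this exon and the 120-nt exon gave the whole combination. The form with the 120-nt exon alone made up 123 of 177 reads (69.5%) and 123 of 172 (71.5%), the form with neither 32 and 26, the form with both 19 and 23, and the form with the 36-nt exon alone 3 and 0.

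Hnrnpd makes the AUF1 isoforms p37, p40, p42 and p45 by choice of a 57-nt exon near the start and the 147-nt exon near the end. The 57-nt exon was in 47 of 53 reads (88.7%) and 57 of 72 (79.2%). Whole molecules had both exons, as in p45, in 30 of 53 reads (56.6%, 43.3 to 69.0) and 37 of 72 (51.4%, 40.1 to 62.6). They had the 57-nt exon alone, as in p40, in 17 and 20 reads, the 147-nt exon alone, as in p42, in 4 and 7, and neither, as in p37, in 2 and 8. The order p45, p40, p42, p37 held in replicate 1, and in replicate 2 p37 stood 1 read above p42.

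Of the remaining alternative exons, several lie in untranslated sequence: a 45-nt exon of Hnrnph2 in 16 of 53 and 34 of 102 reads, a 136-nt exon of Hnrnpa2b1 in 40 of 45 and 74 of 83, and a 26-nt exon of Hnrnpc in 22 of 36 and 29 of 38. In coding sequence, Hnrnph3 included a 139-nt exon in 18 of 23 and 22 of 26 reads. Hnrnpr, a relative of Syncrip, included a 166-nt exon that is partly coding in 11 of 20 and 10 of 30. In Pcbp2, a 39-nt exon was in 11 of 11 and 24 of 31 reads and a 93-nt exon in 6 of 11 and 9 of 28. These shares overlapped between the libraries within their intervals.

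**Figure D5:**
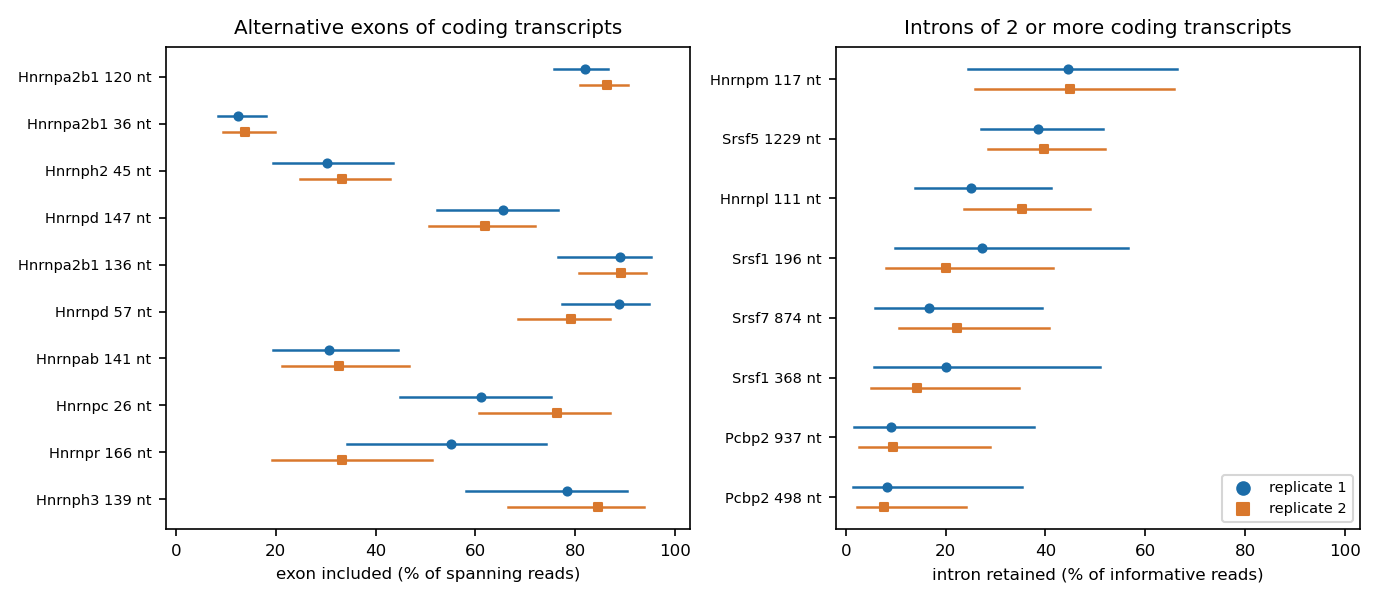
Left, inclusion of 10 of the most read alternative exons of coding transcripts, as percent of spanning reads; right, retained share of the 8 most retained introns that at least 2 coding transcripts hold, as percent of informative reads; circles, replicate 1; squares, replicate 2; bars, Wilson 95% intervals. The 120-nt exon of Hnrnpa2b1 lies at 81.9% and 86.4% and its 36-nt exon at 12.4% and 13.9%, while the introns of Hnrnpm and Srsf5 lie between 38.6% and 45% in both libraries.

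Introns were scored as retained when an exon of a model covered the whole intron and 10 nt on both sides. They were scored as spliced when a model held exactly that intron. Reads that used another splice site were not informative for it. Overlapping introns of 1 gene can share reads, so the calls below are not independent. Of 260 member introns with at least 10 informative reads in each library, 17 in 10 genes were retained in at least 10% of reads on average, against 1.66% of 50430 introns over all coding genes. Pooled, 3.07% of 13067 decisions in replicate 1 and 2.90% of 18404 in replicate 2 were retentions, against 0.524% and 0.507%. Many of the most retained introns are held by a single annotated coding transcript. Among introns that at least 2 coding transcripts hold, 6 of 207 passed, against 0.85% of 30948, and the pooled shares were 0.906% and 0.808%, against 0.350% and 0.272%.

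The introns at the top were of the first kind. A 127-nt and a 433-nt intron of Hnrnpd, which overlap each other, were retained in all of the same 53 and 72 reads. An annotated intron of only 21 nt near the 5′ end of Srsf5 was covered in 59 of 59 and 59 of 59 reads. A 309-nt intron of Hnrnpf was retained in 31 of 31 and 41 of 42, and a 378-nt intron of Srsf1 in 11 of 11 and 19 of 20. The 3′ introns of Srsf2 (502 nt) and Hnrnpa2b1 (1977 nt) are both known sites of regulated 3′ splicing in decay forms of these genes. They were retained in 57 of 63 and 98 of 107 informative reads and in 7 of 12 and 11 of 20. For Hnrnpa2b1 this leaves out the reads that spliced from the same 5′ splice site to another acceptor. A 156-nt intron from that site was retained in only 12 of 290 reads in replicate 1 (4.14%) and 14 of 400 in replicate 2 (3.5%). In Hnrnpd, Srsf5, Srsf1 and Srsf2 most of the retaining reads matched other annotated transcripts, in which the stretch is part of an exon. The Hnrnpf intron is held by 1 of its 10 coding transcripts. Its retaining reads were incomplete splice matches (31 and 40 reads), with 1 new combination in replicate 2. Whether the Hnrnpf stretch is part of an exon in other transcripts was not tested.

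The clearest case of an intron shared by the coding transcripts was in Srsf5. Its 1229-nt intron at chr12:80947866-80949094, held by all 5 coding transcripts, was retained in 22 of 57 reads in replicate 1 (38.6%, 27.1 to 51.6) and 25 of 63 in replicate 2 (39.7%, 28.5 to 52.0). The reads were otherwise spliced. The annotated retained-intron transcript Srsf5-212 took 6 and 3 of them, and an unannotated chain of 7 exons and 2746 nt, drawn in the map of Srsf5, took 8 and 14. All other introns of that chain were removed, so the retention was of 1 intron and not of a whole precursor.

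Other introns that at least 2 coding transcripts hold were read less deeply. In Hnrnpm, a binder of GU-rich sequence, a 117-nt intron was retained in 8 of 18 and 9 of 20 reads (44.7 ± 0.393%). Only 2 of the 8 coding transcripts of Hnrnpm hold this intron, whereas 5 hold the intron on either side. The stretch may thus be part of an exon in other coding transcripts, which was not tested. In Hnrnpl a 111-nt intron was retained in 9 of 36 and 18 of 51 reads (30.1 ± 7.28%), of which 7 and 8 reads belonged to the annotated Hnrnpl-209. Srsf1 kept introns of 196 nt and 368 nt in 3 of 11 and 4 of 20 and in 2 of 10 and 3 of 21 reads, and Srsf7 kept its 874-nt intron, which holds its poison exon, in 3 of 18 and 6 of 27. At these depths the intervals are wide, up to 9.75 to 56.6% for the 196-nt intron of Srsf1 in replicate 1.

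Almost no read of Hnrnpk matched an annotated transcript, 2 of 160 in replicate 1 and 0 of 222 in replicate 2. The reads and the annotation parted at 1 short exon. The annotation has an 84-nt exon at chr13:58394076-58394159 followed downstream by a 16-nt exon at chr13:58393853-58393868, both coding and both on the minus strand. The 16-nt exon was in 0 of 144 and 0 of 205 reads. In its place 136 and 196 reads had a 100-nt exon, the 84-nt exon prolonged by 16 nt at its 3′ end, which 0 annotated transcripts hold, and 4 and 7 reads had the 84-nt exon itself.
16-nt exon: GgTGgtTcTggATAtg
16 nt after the 84-nt exon: GtTGagTaTcaATAat
Capitals mark the 8 of 16 positions with the same base, and gt follows both stretches in the genome. The reads' own bases at these positions were not analysed here, so whether the 16-nt exon was skipped or was written next to its neighbour by the alignment was not tested.

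The same was measured for other short exons. Hnrnpm, with 0 annotated-transcript reads in 29 and 36, had an annotated coding exon of 8 nt at chr17:33669169-33669176 in 0 of 19 and 0 of 21 reads. Over all genes, 59 coding exons of 20 nt or less that at least 2 coding transcripts hold had enough reads, and 79.7% of them had a mean inclusion under 10%. Among 22710 such exons longer than 80 nt the share was 0.299%. The share of exons with low inclusion thus went with exon length across the whole annotation, and the levels of annotated transcripts of Hnrnpk and Hnrnpm in these files are not measures of their full-length messages.

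The rest of the Hnrnpk chain matched annotated introns and held a choice at the 3′ end. The last intron ended at one of 2 acceptors 60 nt apart, as the intron chr13:58392417-58393195 in 74 of 148 reads (50%, 42.0 to 58.0) and 88 of 206 (42.7%, 36.2 to 49.5), and as chr13:58392477-58393195 in 74 of 148 and 118 of 206. These choices define the 2 most read chains of the gene, with 51 and 91 reads and with 56 and 67 reads. The authors' annotation step put the chain with 56 and 67 reads into different classes in the 2 libraries, with annotated sites in replicate 1 and with an unannotated site in replicate 2, which happened to 4 of the 47 member chains found in both libraries.

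In all, members had 235 unannotated spliced chains, of which 47 were in both libraries and held 70.8% of 325 and 71.1% of 432 such reads. Beside the chains of Hnrnpk, the 10 most read were the 7-exon chain of Srsf5, the 9-exon chain of Srsf4 with its 3 poison exons, chains of 15 and 14 exons of Hnrnpm with 9 and 10 and with 5 and 6 reads, a 12-exon chain of Hnrnpa2b1 with 6 and 7 reads and a 10-exon chain of Hnrnph3 with 7 and 5 reads. The remaining Hnrnpk chains in this group had 10 and 10 and 6 and 6 reads.

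The partners of these proteins were read as well, and the share of them over 2-fold apart between the libraries was near that of all genes. Among kinases and carriers of SR proteins, Srpk3, the SR protein kinase of striated muscle, had the highest level of the 10 genes, 89.2 ± 9.93 CPM (91 and 135 reads), above every SR protein gene in both libraries. Clk3 and Clk4, nuclear kinases of SR proteins, had 40.3 ± 8.49 and 38.7 ± 3.69 CPM. SR-related proteins were led by Rnps1 of the exon junction complex at 41.5 ± 3.79 CPM, the speckle protein Son at 34.3 ± 10.2 CPM and U2af2, which binds the polypyrimidine tract, at 32.2 ± 8.18 CPM. Core spliceosome genes were led by Snrpb at 166 ± 27.1 CPM, Sf3b2 at 149 ± 1.10 CPM and Snrpd2 at 50.1 ± 5.73 CPM.

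RNA-binding proteins of hnRNP complexes outside the rule were led by Ewsr1 at 80.3 ± 6.33 CPM, Elavl1, a stabiliser of AU-rich messages, at 53.5 ± 1.02 CPM and Matr3 at 50.1 ± 24.9 CPM. Among decay genes the exon junction helicase Eif4a3 had 52.2 ± 5.32 CPM, the central decay helicase Upf1 44.1 ± 25.3 CPM and Casc3 22.9 ± 2.95 CPM. Of 40 genes in the 5 lists that met the minimum of 50 reads, 2 differed by over 2-fold, Upf1 with 29 and 87 reads (log2 −1.23) and Matr3 with 36 and 95 reads (log2 −1.05), beside the 4.42% of all genes. At a minimum of 20 reads it was 6 of 64, beside 7.92% of 6796 genes. The median log2 ratio was −0.25 for the kinases (5 genes), 0.13 for SR-related genes (8), 0.07 for the core (15), −0.06 for other RNA-binding proteins (8) and −0.13 for decay genes (4).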

How the data were processed

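For each library the authors deposited raw read counts, 1 whole number per transcript model, and the coordinates of the models. Per the file headers and the deposited notes, reads were aligned to mm10 and assigned by TALON to transcripts of GENCODE M21 or to models outside it. Aligner and tool versions: not given in the sources used here. Truncated molecules become incomplete matches, and short exons can be misplaced in alignment, either of which moves reads between classes.

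The members and all gene lists were chosen with earlier results of these data known. Counts of both libraries were summed per gene and class. CPM used reads of annotated genes, with ERCC spike-ins left out. Ratios had a prior count of 0.5 and a minimum of 50 summed reads. Summaries of isoform shares needed 20 reads, and exons and introns 10 informative reads, in each library. Internal exons came from GENCODE M21 coordinates; a read included an exon with both exact boundaries and skipped it with an intron covering it. Exons at 10 to 90% were called alternative. Chains of the same introns were merged across classes.

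Named in the text were all SR protein genes, the 15 most read hnRNP and PCBP genes, poison exons with enough reads, the 10 most retained introns, the 10 alternative exons and unannotated chains with the most reads, and the 3 most read genes of each list with Srpk3. One of these exons is not reported here. Other exons and introns were named after their values were seen. The libraries were not copies of each other: 190 of 4294 genes were over 2-fold apart. Wilson 95% intervals and the 3-count floor cover counting error only, as the reads carry no molecular identifiers. No test was run, since there is 1 group. Counting and scoring were checked on simulated data. Pseudogene copies were sought with BLAST 2.17.0 (at least 90% identity over 500 nt). Alternative scalings came from edgeR 4.0.16 and DESeq2 1.42.0 in R 4.3.3. The rest used Python 3.11.15 with pandas 2.3.3, numpy 2.4.6, scipy 1.17.1 and matplotlib 3.10.9.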

Additional observations from a re-analysis of the deposited data

Results flagged for a closer look

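Reads classed as antisense lay over member genes, outside the counts used for them. There were 98 such reads over 17 members in replicate 1 and 183 over 25 members in replicate 2, of which 6 and 2 reads were spliced. Srsf10 had 14 and 27, Hnrnpc had 15 and 26, and Hnrnph3 had 16 in replicate 1. Whether they are transcripts of the other strand was not tested.

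Pseudogene copies of members also had reads, 13 in replicate 1 and 34 in replicate 2, on 7 of the 70 annotated copies of 14 members. All but 1 of the replicate 1 reads and all of the replicate 2 reads lay on copies of Hnrnpa3. The copy Gm5641, alike over all of its aligned 1488 nt, had 6 and 18 reads, and Gm5940, alike over 1068 nt, had 3 and 10. All copies together had 12 and 34 reads beside 26 and 50 of Hnrnpa3 itself, so the level of Hnrnpa3 is uncertain by that much.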

How the results depend on the processing

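No paired analysis was possible because there is only 1 group. No member was called in either direction, so no call reversed, but signs near 0 changed. Hnrnph3, Hnrnpl, Pcbp1 and Pcbp4 changed the sign of their log2 ratio with TMM and with DESeq2 size factors, Hnrnpa2b1 (0.37, against −0.15) and Hnrnpl (0.46, against −0.06) with annotated-transcript reads only, and Hnrnpc and Hnrnpm when the deeper library was thinned. Counting annotated-transcript reads only moved the level of 11 of 36 members by over 1.5-fold. The count of members over 2-fold apart was 0 under every scaling, class filter and minimum tried but one: with no minimum it was 1, Pcbp3 with 1 and 4 reads (log2 −1.24). The median log2 ratio was −0.072 with DESeq2 size factors and −0.28 with annotated-transcript reads only. The companion count was 6 of 64 at a minimum of 20 reads.

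Shares by class rest on a pair of genes, as described. Annotated transcripts took 67.4% without Hnrnpa2b1, 65.4% without Hnrnpk and 75.9% in the median member, against 60.3% for all members pooled and 65.8% for all genes pooled, so that the pooled difference changed direction without Hnrnpa2b1. In the same order, new combinations took 13.2%, 5.96% and 4.30%. Incomplete matches took 10.2% without Hnrnpa2b1 and 8.11% in the median member, unannotated sites 3.38% without Hnrnpk and 1.66% in the median member, and genomic reads 3.89% without Hnrnpa2b1 and 0.350% in the median member. No median over all genes was computed, so the medians of members have only pooled shares to stand beside. The decay share was 0 in the median member. The leading model held 53.1% at a minimum of 50 reads. Pooled poison inclusion was 53.2% when covering 50% of the exon counted, which lets in exons that coding exons overlap and reads that retain the intron around an exon. It was 5.05% with annotated-transcript reads only, which drops the unannotated Srsf4 chain. Pooled retention was 0.857% for introns of at least 2 coding transcripts and 1.34% without annotated retaining reads.

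With each library left out in turn, the summed level was 1810 to 2073 CPM, annotated transcripts 60.0 to 60.6%, incomplete matches 17.3 to 20.5%, new combinations 9.63 to 12.2%, unannotated sites 3.99 to 5.23%, genomic reads 4.64 to 5.84%, the decay share 2.35 to 2.80%, the leading model 44.2 to 50%, poison inclusion 8.17 to 13.3% and retention 2.90 to 3.07%. Depth limits the rest: most poison exons rest on fewer than 50 deciding reads per library, and genes below 20 reads in a library are outside the isoform medians.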
